A study of Mus musculus with 23 samples.

Results

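The 9 genes described here are the adult globins Hbb-bs, Hbb-bt, Hba-a1 and Hba-a2 together with Car1, Car2, Rhd, Tfrc and Alas2, chosen by symbol from the 32285 genes of the feature tables. They were followed in 6 bone marrow and 3 spleen single-cell RNA-seq libraries from mice of 2 months, labelled C57BL/6, whose lines were made in C57BL/6N per the study's methods. The mice were wild type (WT) or carried STAT5B with 1 tyrosine changed to histidine (STAT5B-Y665H) or to phenylalanine (STAT5B-Y665F), with 2 bone marrow libraries and 1 spleen library per genotype. The Y665H line was made by adenine base editing and the Y665F line with a donor template, and whether the mice were heterozygous or homozygous was not taken from the labels. The study describes marrow taken from tibiae and femurs and spleen libraries made from CD45+ cells, and its single-cell data under a spleen heading as 1 sample combined from several mice of each group. After filtering, 66473 bone marrow barcodes and 18819 spleen barcodes remained. The main population was the 7019 bone marrow barcodes with at least 1 UMI (a count of a distinct molecule) of Klf1, an erythroid transcription factor gene. They numbered 695 and 1292 in the WT libraries, 2085 and 1118 in the Y665H libraries, and 1014 and 815 in the Y665F libraries, always in the order replicate 1, replicate 2. Klf1 chose these barcodes, so its own level is no result.

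Red-cell precursors take up transferrin-bound iron through the transferrin receptor, build heme from it, and load heme into hemoglobin made of alpha-like and beta-like globin chains. Erythropoietin signals through its receptor, JAK2 and STAT5 in these cells. As background on the members, Hba-a1 and Hba-a2 encode adult alpha-globin and Hbb-bs and Hbb-bt adult beta-globin. Alas2 encodes the erythroid enzyme that starts heme synthesis, and Tfrc the transferrin receptor. Car1 and Car2 encode carbonic anhydrases, and Rhd a Rh blood group protein of the red-cell membrane.

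On GRCm38, all 9 members are protein-coding genes. Hbb-bt (chr7:103812524-103813996) and Hbb-bs (chr7:103826534-103828096) lie on the minus strand with starts 14100 bases apart. Hba-a1 (chr11:32283511-32284465) and Hba-a2 (chr11:32296489-32297298) lie on the plus strand with starts 12978 bases apart. Car1 (chr3:14766216-14808368) and Car2 (chr3:14886273-14900770) also share a chromosome, with starts 77905 bases apart on opposite strands. Rhd (chr4:134864536-134896172), Tfrc (chr16:32608920-32632794) and Alas2 (chrX:150547375-150570638) stand alone among the members. The globin pairs are near-identical copies. Of all 90-base windows of the transcripts, 58.9% of those in Hba-a1 and 77.2% of those in Hba-a2 occur in the other copy, against 63.3% in Hbb-bs and 55.5% in Hbb-bt. The sources name both a 3′ and a 5′ kit, and the shared part differs by end. In the first 300 bases it was 23.7% in Hba-a1, 81.5% in Hbb-bs and 46.45% in Hbb-bt, and covered all 211 windows of Hba-a2. In the last 300 bases it was 57.35% in Hba-a1, 49.8% in Hba-a2, 24.6% in Hbb-bs and 24.2% in Hbb-bt. Whether reads from such windows were divided between the copies or left out cannot be seen in the counts. Values of single copies and the Hbb-bt shares below are thus uncertain, and the globin sum may lack such reads.

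The 3 sequences from the RefSeq promoter set below are shown because the Hbb copies gave different results and Hba-a1 gave the most globin UMIs. Each is the 250 bases before the RefSeq start, which for these genes lies inside the gene span given above, on GRCm38, read 5′ to 3′ on the gene's strand, with matches on either strand in capitals, to CCAAT, the TATA box form TATAA, the GATA form AGATAA or the CACCC box CCACACCC.
Hbb-bs, chr7:103827929-103828178, minus strand: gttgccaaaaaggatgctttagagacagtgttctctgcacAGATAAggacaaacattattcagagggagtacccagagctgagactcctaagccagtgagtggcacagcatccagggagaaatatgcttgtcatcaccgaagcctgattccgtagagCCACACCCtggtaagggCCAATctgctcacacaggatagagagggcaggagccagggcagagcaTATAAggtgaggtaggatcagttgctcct
Hbb-bt, chr7:103813924-103814173, minus strand: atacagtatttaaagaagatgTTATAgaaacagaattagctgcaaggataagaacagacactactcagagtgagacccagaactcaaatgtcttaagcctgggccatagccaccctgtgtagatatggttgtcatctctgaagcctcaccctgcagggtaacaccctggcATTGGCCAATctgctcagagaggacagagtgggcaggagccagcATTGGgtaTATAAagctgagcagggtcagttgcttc
Hba-a1, chr11:32283422-32283671, plus strand: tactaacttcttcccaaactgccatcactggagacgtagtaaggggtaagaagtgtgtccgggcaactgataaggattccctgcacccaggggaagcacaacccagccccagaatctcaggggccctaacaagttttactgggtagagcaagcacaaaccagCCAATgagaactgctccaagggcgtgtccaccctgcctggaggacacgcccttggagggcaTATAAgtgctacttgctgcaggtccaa
The Hbb-bs window held AGATAA 210 bases and CCACACCC 93 bases before the start, and the Hbb-bt window held neither. Over 243 aligned bases the Hbb windows were 73.3% identical. The Hba-a2 window (chr11:32296242-32296491) was identical to that of Hba-a1 over all 247 aligned bases. Of 32851 promoter windows of this length, 9.99% held AGATAA, 3.20% CCACACCC, 33.8% CCAAT and 22.8% TATAA. The Rhd window also held AGATAA, 43 bases before the start, and the Alas2 window held it on the opposite strand, 86 bases before. The letters TTCNNNGAA, the core of a STAT site, were in 7.02% of all windows and in none of those of the 7 members matched. Other forms of these motifs were not searched, and a match is a description of letters only. Car1 and Car2 were not matched.

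Before the comparisons, the Klf1-positive barcodes were compared with the markers of other marrow cells. The median UMI count per Klf1-positive barcode was 8871 and 3608 in WT, 6561 and 2901 in Y665H, and 4348 and 2425 in Y665F. A Gata1 UMI, from another erythroid transcription factor gene, was present in 63.9% and 38.9% of WT, 54.1% and 25.04% of Y665H, and 31.1% and 13.4% of Y665F barcodes. Markers of granulocyte-monocyte progenitors (GMP), all 6 detected in Y665F, summed to 251 and 348 CPM (UMIs of the genes scaled to the same total in every sum of barcodes) in WT, 412 and 382 in Y665H, and 540 and 1581 in Y665F. The 6 megakaryocyte markers summed to 28.3 to 37.7 in WT and Y665H and to 180.5 and 542 in Y665F. Most of these Y665F sums was Pf4, at 144 and 464, with Itga2b at 22.8 and 58.8. Gp9 stood at 7.72 and 8.34 in Y665F, against 7.15 and 8.25 in WT. Neutrophil markers summed to 1.72 to 35.4 in WT and Y665H and to 113 and 197 in Y665F, and B cell markers to 13.6 to 32.1 and to 47.8 and 95.2. T and NK cell markers stayed at 1.23 to 4.83 in all 6 libraries. The GMP marker set also claimed 40.6% and 15.3% of WT, 33.3% and 16.0% of Y665H, and 47.9% and 61.2% of Y665F barcodes. At least 2 Klf1 UMIs were held by 52.1% and 25.5% of WT, 39.4% and 19.1% of Y665H, and 24.3% and 7.12% of Y665F barcodes. These last shares were not thinned to a common depth and use the gene that chose the barcodes, so they are no result. By the GMP, megakaryocyte, neutrophil and B cell marker sums, the Y665F sums held more RNA of other lineages. The calls of the members in Klf1-positive cells are therefore also given below for the barcodes that no other marker set claimed.

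Klf1-positive barcodes made up 17.0% and 12.5% of WT marrow, 21.8% and 10.2% of Y665H marrow, and 6.48% and 5.12% of Y665F marrow. The Y665F libraries lay below all 4 others. The deposited barcodes of Y665F replicate 2 had at least 1179 UMIs, against at least 500 in every other marrow library. Its unthinned values thus start from another depth. The mean difference between Y665F and WT was -8.96 percentage points, with p = 0.333 in an exact two-sided permutation test, the smallest that 2 against 2 libraries can give. For thinned values, barcodes with fewer than 1500 UMIs were left out and the rest were thinned to 1500 UMIs. The shares were then 10.8% and 9.24% in WT, 11.1% and 8.85% in Y665H, and 4.003% and 3.40% in Y665F. Y665H and WT differed by 1.24 percentage points, with the libraries of both genotypes overlapping (exact permutation p = 1).

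In Klf1-positive cells of Y665F marrow, alpha-globin, the beta-globin Hbb-bs, both carbonic anhydrases and Rhd were lower than in WT, while Hbb-bt and Tfrc did not pass the test. In Y665H no member passed. In Y665F against WT, 6 of the 8 members tested were called lower and none higher, beside 9.13% lower among the 10438 genes tested. A call required an adjusted p under 0.05 in edgeR's quasi-likelihood test and a change over 1 on the log2 scale. The median change of the 8 was -1.70, against 0.02 over all genes. The ninth, Alas2, did not pass the filter on low counts in these cells.

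**Figure D1:**
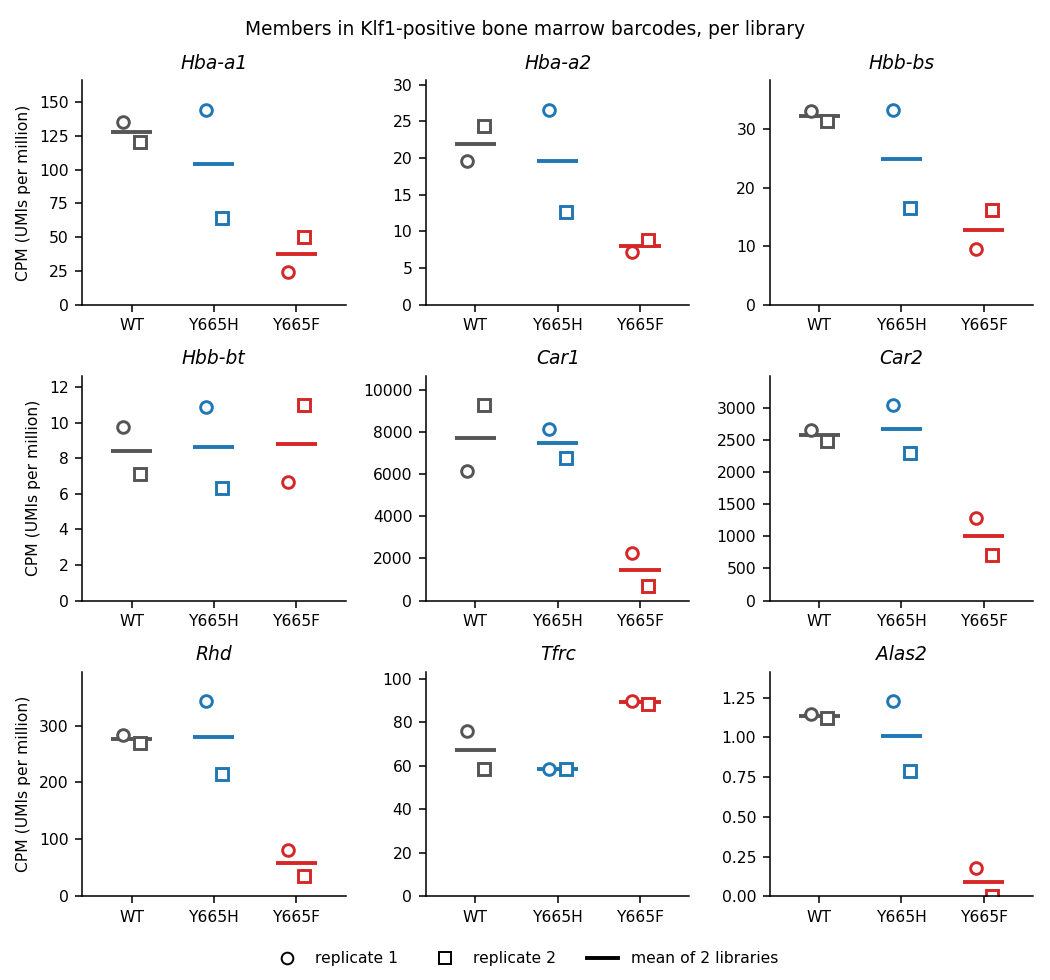
CPM (y axis, from 0) of each member in Klf1-positive bone marrow barcodes of the 6 libraries, with circles for replicate 1, squares for replicate 2 and a bar at the mean of the 2 libraries. For Hba-a1, Hba-a2, Hbb-bs, Car1, Car2 and Rhd both Y665F points lie below both WT points, while for Tfrc both lie above and for Hbb-bt the groups overlap.

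Hba-a1 gave the most globin UMIs, at 135 and 120 CPM in WT, 145 and 64.5 in Y665H, and 24.2 and 50.4 in Y665F. All Y665F values were below all others. It fell by 2.11 on the log2 scale in Y665F against WT (SE 0.354, edgeR adjusted p = 0.0021). Hba-a2 stood at 19.6 and 24.4 in WT, 26.6 and 12.6 in Y665H, and 7.20 and 8.77 in Y665F. It fell by 1.74 (SE 0.344, edgeR adjusted p = 0.0037), again with no overlap between Y665F and the other genotypes. Since the copies share so many windows, it cannot be told whether the Hba-a2 change is independent of that of Hba-a1.

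Hbb-bs, which gave more UMIs than Hbb-bt in these cells, stood at 33.2 and 31.5 CPM in WT, 33.4 and 16.6 in Y665H, and 9.48 and 16.2 in Y665F. It fell by 1.67 (SE 0.311, edgeR adjusted p = 0.0029), with Y665F replicate 2 close to Y665H replicate 2. Hbb-bt stood at 9.73 and 7.12 in WT, 10.9 and 6.32 in Y665H, and 6.67 and 10.97 in Y665F, so that the genotypes overlapped. Its fitted change was -0.26 (SE 0.345, edgeR adjusted p = 0.588).

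The makeup of the beta-globin UMIs also differed between the libraries. Hbb-bt gave 22.7% and 18.4% of the Hbb-bs and Hbb-bt UMIs in WT, 24.6% and 27.6% in Y665H, and 41.3% and 40.3% in Y665F. The 95% exact binomial intervals, which cover counting error only, ran from 31.1% to 52.1% and from 28.1% to 53.6% in the Y665F libraries. The share was larger still in Y665F barcodes without Klf1. In those with GMP markers, Hbb-bt gave 57.1% and 46.9% in WT, 34.4% and 43.8% in Y665H, and 71.4% and 67.4% in Y665F, from 21, 49, 93, 32, 189 and 224 UMIs. In these GMP barcodes Hbb-bt stood at 3.07 and 3.93 CPM in WT, 3.29 and 2.51 in Y665H, and 6.95 and 7.45 in Y665F, while Hbb-bs stood between 2.30 and 6.27 in all 6 libraries. The higher Hbb-bt level in Y665F was a separation of library values with no test. GMP and other markers rose in the same Y665F Klf1-positive sums, and their part in the Hbb-bt level was not tested. In the Klf1-positive barcodes that no other marker set claimed, Hbb-bt stood at 8.85 and 6.47 in WT and at 7.42 and 4.36 in Y665F.

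**Figure D2:**
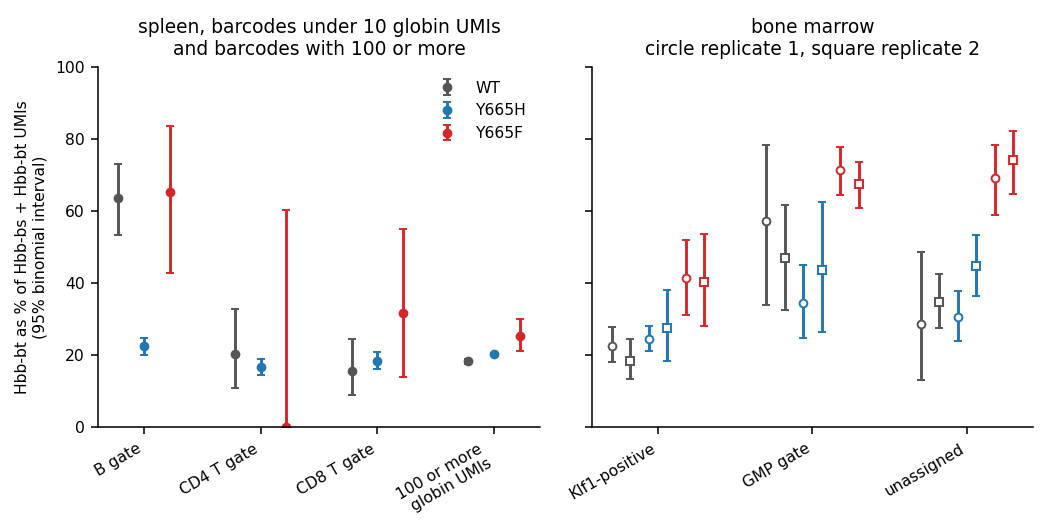
Share of Hbb-bt among the UMIs of Hbb-bs and Hbb-bt (y axis, percent) with 95% exact binomial intervals, in 3 spleen cell sets with few globin UMIs and in spleen barcodes with 100 or more (left), and in 3 sets of bone marrow barcodes of each library (right, circle replicate 1, square replicate 2). The Y665F libraries sit highest in the marrow sets, at 41.3% and 40.3% in Klf1-positive barcodes, and the WT and Y665F spleen B cell sets sit at 63.6% and 65.2%.

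All 4 adult globins together reached 198 and 183 CPM in WT, 215 and 100 in Y665H, and 47.6 and 86.4 in Y665F Klf1-positive cells. At most 0.0215% of the counted UMIs of these cells were therefore globin, in Y665H replicate 1. No bone marrow barcode held 100 globin UMIs, and the highest held 91. Klf1-positive barcodes of at least 1500 UMIs were thinned to 1500. A globin UMI was then found in 11.4% and 11.4% of WT, 14.1% and 9.14% of Y665H, and 3.46% and 5.26% of Y665F barcodes. Most of these cells thus held little globin RNA. The unthinned shares, over all Klf1-positive barcodes, were 26.6% and 17.2%, 29.6% and 13.6%, and 8.97% and 7.48%. Barcodes with 10 or more globin UMIs numbered 37 and 47 in WT, 109 and 10 in Y665H, and 6 and 9 in Y665F, and most of those in WT and Y665H were Klf1-positive.

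Car1 gave the most UMIs of all members, at 6156 and 9258 CPM in WT, 8132 and 6781 in Y665H, and 2259 and 668 in Y665F. It fell by 2.604 (SE 0.488, edgeR adjusted p = 0.0029), and 0.153% of the genes tested had a lower fitted change. A Car1 UMI was found after thinning in 90.3% and 95.4% of WT, 94.1% and 94.5% of Y665H, and 70.3% and 49.8% of Y665F barcodes. Car2 stood at 2658 and 2482 in WT, 3033 and 2295 in Y665H, and 1286 and 714 in Y665F. It fell by 1.58 (SE 0.345, edgeR adjusted p = 0.0054). Both carbonic anhydrases were lowest in Y665F replicate 2, the library with the most GMP marker RNA.

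Rhd stood at 284 and 269 CPM in WT, 343 and 215 in Y665H, and 82.3 and 35.5 in Y665F. It fell by 2.41 (SE 0.392, edgeR adjusted p = 0.0019), and 0.24% of the genes tested had a lower fitted change. Tfrc stood at 76.2 and 58.7 in WT, 58.6 and 58.5 in Y665H, and 89.7 and 88.6 in Y665F. Both Y665F CPM values exceeded all others, but the fitted change against WT was 0.15 (SE 0.237, edgeR adjusted p = 0.648). The fit also uses normalization factors, 1.02 and 0.909 in WT and 1.05 and 1.27 in Y665F, which the CPM values lack. On the CPM scale, Tfrc was the member for which Y665F was not below WT in either library. Alas2 was nearly absent, with 8 and 6 UMIs in WT, 17 and 3 in Y665H, and 1 and 0 in Y665F, or 1.14 and 1.12, 1.23 and 0.79, and 0.18 and 0 CPM. Without the filter on low counts it was called lower in Y665F against WT (-3.225, SE 1.21, edgeR adjusted p = 0.0414) and against Y665H (edgeR adjusted p = 0.0287), on a fitted change that depends on the prior count since Y665F held 1 UMI in all.

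In the Klf1-positive barcodes that no other marker set claimed, all 6 calls in Y665F against WT were kept. Car1 stood at 6171 and 9458 CPM in WT and at 2450 and 682.5 in Y665F. Car2 stood at 2705 and 2517 in WT and at 1317 and 730.4 in Y665F. Rhd stood at 297 and 273 in WT and at 86.3 and 42.1 in Y665F. Both Y665F libraries were below both WT libraries for each of these genes, as they were for the 3 globins called. Hba-a1 stood at 142 and 123 in WT and at 21.1 and 47.9 in Y665F. Hba-a2 stood at 19.3 and 23.6 in WT and at 4.69 and 4.36 in Y665F, the latter from 12 and 3 UMIs. Hbb-bs stood at 31.7 and 30.03 in WT and at 5.47 and 10.2 in Y665F, the latter from 14 and 7 UMIs. Tfrc, not called, was above WT in both Y665F libraries, at 78.1 and 60.1 in WT and 89.1 and 100.2 in Y665F. Alas2 had 3 and 4 UMIs in WT and 1 and 0 in Y665F. In the barcodes that also held a Gata1 UMI, however, the globin sum was 214 and 246 in WT but 46.0 and 219 in Y665F, so that Y665F replicate 2 reached the WT level. All 6 calls against WT were also kept there, and Car1 stayed apart, at 6374 and 9615 in WT and 2510 and 1120 in Y665F.

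In Y665H against WT, the fitted changes of the 8 members lay within 0.23 of 0 on the log2 scale and none was called. Over the 10438 genes 0.0% were called by edgeR or DESeq2, and 145 had an unadjusted p under 0.05 in edgeR. That is fewer than unchanged genes alone would give at this threshold. The test was thus cautious here, and the lack of calls does not show that no gene changed. The Y665H libraries differed more from each other than from WT for several members. For the globin sum, Rhd and Car2, replicate 1 was above and replicate 2 below both WT libraries. In Y665F against Y665H, the same 6 members were called lower, beside 10.0% lower among all genes. Without Y665H replicate 1, Hba-a1, Hba-a2, Hbb-bs and Car2 were no longer called in that comparison, and among barcodes with a Gata1 UMI Hba-a1 was not called either (-1.19).

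**Figure D3:**
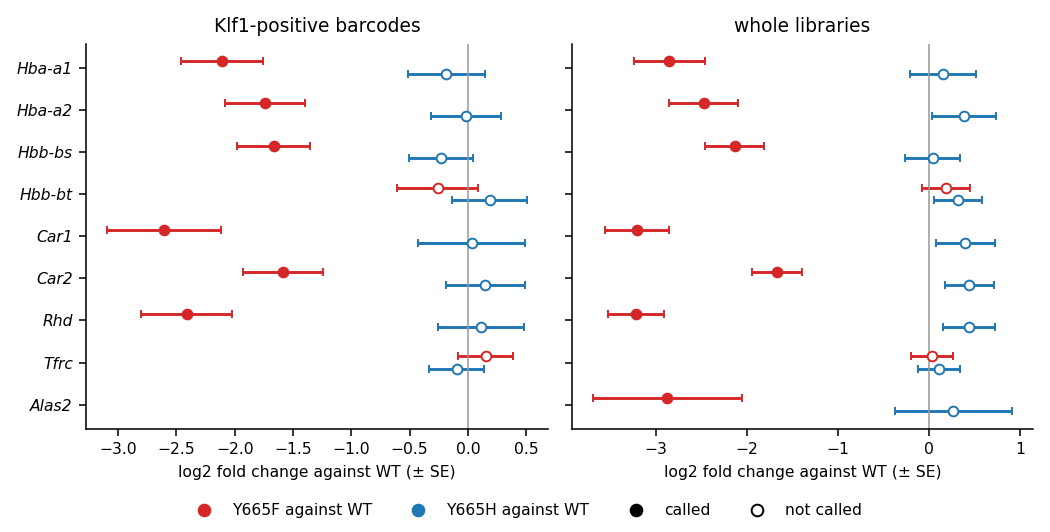
Fitted log2 fold changes against WT (x axis, points with standard errors) of the members in Klf1-positive barcodes (left) and whole bone marrow libraries (right), with filled points for calls. Y665F points lie left of 0 for 6 members on the left and 7 on the right, Hbb-bt and Tfrc lie near 0, and Y665H has no filled point.

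Summed over whole bone marrow libraries, 7 of the 9 members were called lower in Y665F against WT, beside 8.82% lower among the 13618 genes tested. In such sums fewer red-cell precursors and less RNA per precursor cannot be told apart. Car1 fell from 3584 and 4566 CPM in WT to 639 and 366 in Y665F, a change of -3.21. Rhd fell from 149 and 113 to 18.3 and 13.1, also -3.21. Hba-a1, Hba-a2 and Hbb-bs changed by -2.85, -2.47 and -2.14, and Car2 by -1.67. Alas2 changed by -2.88 (edgeR adjusted p = 0.0142), from 0.52 and 0.39 CPM to 0.05 and 0.08, but lost its call without WT replicate 2 or without either Y665F library. Hbb-bt stood at 6.09 and 5.34 in WT, 6.99 and 4.96 in Y665H, and 6.62 and 8.05 in Y665F (0.18, not called), and thus exceeded Hbb-bs in both Y665F libraries, where Hbb-bs stood at 3.72 and 4.21. Tfrc changed by 0.03 and was not called. No member was called in Y665H, where 0 of 13618 genes were called and 670 had an unadjusted p under 0.05 in edgeR.

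Kit, the stem cell factor receptor gene, is switched off as red-cell precursors mature, so the Klf1-positive barcodes were split by a Kit UMI. Barcodes with a Kit UMI made up 36.5% and 17.1% of WT, 24.6% and 16.4% of Y665H, and 41.8% and 38.5% of Y665F. A barcode of few UMIs can lack a Kit UMI by sampling. Kit itself was called higher in Y665F, at 56.8 and 47.4 CPM in WT, 43.8 and 56.4 in Y665H, and 107.8 and 187.8 in Y665F (1.20, SE 0.265, edgeR adjusted p = 0.00566). A Kit UMI thus need not mark the same stage in each genotype, and its part in the comparison was not tested. In WT, globin RNA was higher without Kit, and in Y665F this step was small. Hba-a1 stood at 58.3 and 40.2 CPM with Kit and at 199 and 140 without it in WT. In Y665F it stood at 22.9 and 44.0 with Kit and at 25.5 and 55.1 without it. In Y665H it stood at 51.1 and 49.5 with Kit and at 180 and 68.2 without it, so the step was small in replicate 2 there too. The genotype effect on Hba-a1 was 1.63 lower on the log2 scale without Kit than with it (SE 0.229, edgeR adjusted p = 1.0e-07). This SE and p rest on a spread estimated largely across genes, from 2 libraries per genotype. They need not cover how far the step varied between libraries of a genotype, which was far in Y665H.

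**Figure D4:**
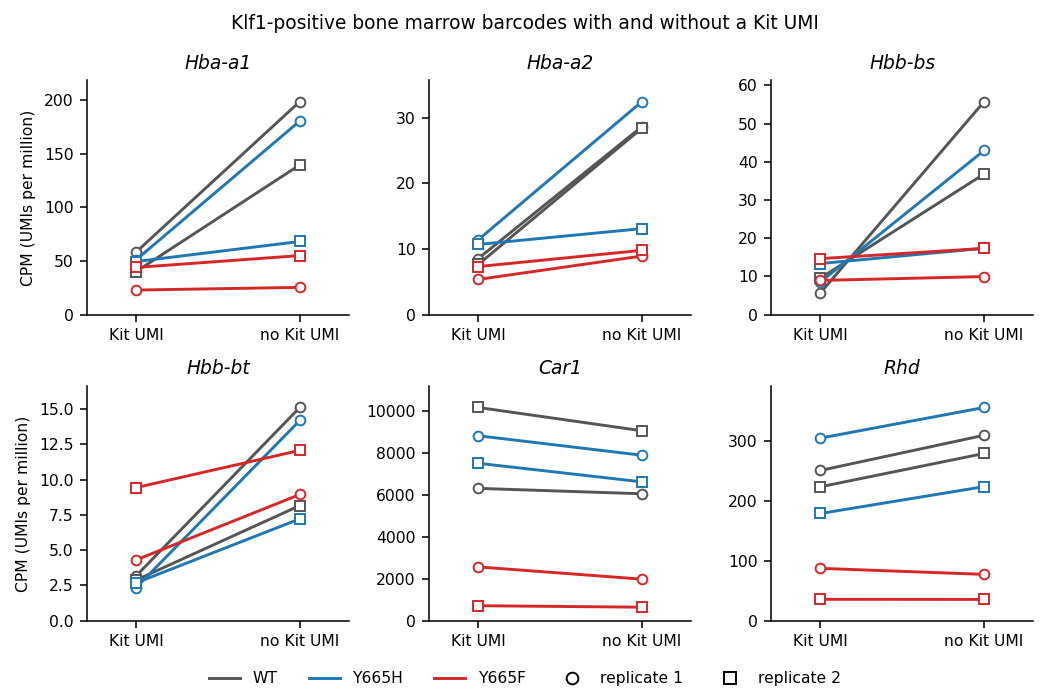
CPM (y axis, from 0) of 6 members in Klf1-positive barcodes with and without a Kit UMI, 1 line per library, coloured by genotype. The WT and Y665H replicate 1 lines of Hba-a1 and Hbb-bs rise steeply to the right and the Y665F lines stay low, whereas for Car1 and Rhd the Y665F lines lie below the others on both sides.

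Hbb-bs stood at 5.71 and 9.58 with Kit and 55.8 and 36.8 without it in WT, and at 8.96 and 14.7 with Kit and 9.97 and 17.4 without it in Y665F. Its effect differed by -2.77 (SE 0.428, edgeR adjusted p = 2.1e-06), with the same limit on the SE and p as for Hba-a1. In Y665H, Hbb-bs stood at 8.57 and 13.4 with Kit and at 43.0 and 17.4 without it, so replicate 1 resembled WT and replicate 2 Y665F. The values with Kit rest on few UMIs. Hbb-bs and Hbb-bt together held 28 and 13 there in WT, 42 and 12 in Y665H, and 37 and 23 in Y665F. Hba-a1 and Hbb-bs were among 14 of 10184 genes (0.137%) called for this difference in Y665F, all of them lower. The 14 included Elane, a neutrophil protease gene and one of the GMP markers (-1.10, edgeR adjusted p = 1.0e-07), which was called in Y665H as well (-0.79, edgeR adjusted p = 0.0155), and the part of such cells in the globin difference was not tested. The other members were not called, among them Hbb-bt at -1.39, Hba-a2 at -1.24, Rhd at -0.55, Car1 at -0.27 and Tfrc at -0.22. With predicted doublets kept, the differences were -0.86 for Hba-a1 (edgeR adjusted p = 0.405) and -1.54 for Hbb-bs (edgeR adjusted p = 0.537), and without WT replicate 1 that of Hbb-bs was -1.82 (edgeR adjusted p = 0.185). Without WT replicate 2, Car1 (-0.34, edgeR adjusted p = 0.00317) and Rhd (edgeR adjusted p = 0.0454) were called lower as well.

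Within the Kit-negative barcodes the same 6 members were called lower in Y665F against WT, beside 10.1% lower among all genes, led by Car1 at -2.75 and Rhd at -2.57. Within the Kit-positive barcodes, Car1 (-2.43), Rhd (-1.98) and Car2 (-1.36) were called, beside 6.48% lower among all genes. Their globin changes were not called, at -0.81 for Hba-a1, -0.53 for Hba-a2 and 0.53 for Hbb-bs.

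The members were also present in barcodes outside the Klf1-positive set. In GMP barcodes Car1 stood at 1161 and 1518 CPM in WT, 2166 and 1763 in Y665H, and 320 and 336 in Y665F. In B cell barcodes, which should lack Car1, it stood at 440 and 625, 908 and 1167, and 193 and 367. Car1 was lowest in Y665F in both of these sets. In Y665F replicate 2 the Klf1-positive level of 668 was not far above the 336 of GMP barcodes, whereas Rhd stood at 35.5 against 11.6. The globin sum was 9.50 to 21.6 in the B cell barcodes of WT and Y665H and 4.17 and 10.1 in Y665F. Whether this RNA was free RNA or expression was not tested. Tfrc, which dividing cells of many kinds express, stood at 40.7 and 16.6 in WT, 25.1 and 25.6 in Y665H, and 29.4 and 59.7 in Y665F GMP barcodes.

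Over 44 sums from 6 libraries and 8 kinds of marrow cells, the non-members most like the globin sum were Mgst3, Ermap, Aldh1a7, Ccdc74a and Kel, with Pearson r between 0.779 and 0.787 on the log2 of CPM with a pseudocount of 1. The points share libraries and depth. Among the members outside the sum, r was 0.737 for Car2, 0.715 for Rhd, 0.660 for Alas2, 0.654 for Tfrc and 0.579 for Car1. Hbb-bt, part of the sum, reached 0.681, against 0.926 for Hba-a1.

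Other genes of the pathway were read from lists in Klf1-positive cells of Y665F against WT. The lists were chosen with earlier results of these data known, so their counts beside the shares of all genes are description only. The list results are given over all Klf1-positive barcodes only. Their Y665F sums held more RNA of other lineages, and the part of this in the list results was not tested. Of 10 heme synthesis genes 5 were called lower and none higher, with a median of -1.004 against 0.02 over all genes and beside 9.13% lower among all genes. Alad (-1.73) and Uros (-1.66), which act early in porphyrin synthesis, were among them. Of 10 iron handling genes 3 were lower, namely the ferritin genes Fth1 (-1.45) and Ftl1 (-1.09) and the ferrireductase gene Steap3 (-1.15), with a list median of -0.52. Of 9 erythroid cytosol genes 3 were lower, namely Prdx2 (-1.55), Isg20 (-1.43) and Blvrb (-1.09), with a median of -0.93. Of 12 red-cell membrane genes 1 was called lower, a share close to that of all genes, with a median of -0.55. None of the 6 embryonic globins had enough UMIs to be tested.

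Among 10 erythroid transcription factor genes 2 were called lower, Gfi1b (-1.34) and Gata1 (-1.33), beside 9.13% lower among all genes. Gata2, which precedes Gata1 in red-cell development, was the 1 called higher (1.63), a share close to that of all genes. The list median was 0.32. Of 11 genes of erythropoietin and STAT5 signalling, the erythropoietin receptor gene Epor was lower (-1.23) and 6 were higher, with a median of 1.71. Podxl (5.44), Socs2 (4.75) and Cish (3.54) were the highest, and Socs2 and Cish are known STAT5 targets. In WT these genes had only 4 and 0, 13 and 4, and 8 and 2 UMIs. In Y665F they had 119 and 28, 163 and 146, and 42 and 38. The sizes and order of these changes thus rest on few WT UMIs and depend on the prior count. The list holds such targets beside receptor and kinase genes, so its median does not measure signalling. The share called higher among all genes was 10.5%. No gene of any of these lists was called in Y665H against WT.

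In spleen, with 1 library per genotype and no replicate check, nearly all globin RNA sat in a few barcodes. Barcodes with 100 or more globin UMIs numbered 3 of 6489 in WT (0.0462%, 95% exact binomial interval 0.00954% to 0.135%), 46 of 7504 in Y665H (0.613%, 0.449% to 0.817%) and 1 of 4826 in Y665F (0.0207%, 0.000525% to 0.115%). They held 98.2%, 97.0% and 85.4% of the globin UMIs of their libraries, which totalled 24680, 267427 and 767. Their median globin count was 8090 UMIs in WT and 6099 in Y665H, or 92.7% and 85.9% of their RNA.

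The globin-rich barcodes of Y665H and WT differed from the marrow Klf1-positive cells in the other members. Of the 46 in Y665H, 45 held Alas2 (685 UMIs), 38 Car2 (700 UMIs), 14 Tfrc (97 UMIs) and 10 Rhd (39 UMIs), none held Car1 and 2 held Klf1. The 3 in WT all held Alas2, with 55 UMIs, and none held Car1. In both libraries Alas2 was thus frequent and Car1 at 0, the reverse of the marrow Klf1-positive cells. The single Y665F barcode, with 655 globin UMIs of 1867, held 15 UMIs of Car2 and 1 each of Car1, Tfrc and Alas2. Alpha-globin gave 78.3% and 78.9% of the globin UMIs in WT marrow Klf1-positive cells, whereas the rich spleen barcodes of Y665H held 94445 alpha-globin and 164964 beta-globin UMIs. Of the 46, 23 were claimed by no marker set, while 11 held at least 2 T cell markers and 5 at least 2 B cell markers beside medians of 7435 and 7349 globin UMIs, so these barcodes are not named by cell type here.

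Among spleen barcodes with fewer than 10 globin UMIs, the Y665H library held more globin in every cell set. In B, CD4 T and CD8 T cells the globin sum was 16.6, 9.47 and 11.7 CPM in WT, 198, 180 and 175 in Y665H, and 9.43, 1.52 and 1.96 in Y665F. In Y665H the level ranged over the sets from 175 in CD8 T cells to 237 in neutrophils (95% exact Poisson interval 218 to 258, which does not hold the CD8 T value). These intervals cover counting error only, and a genotype effect cannot be told apart from a difference between single libraries.

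**Figure D5:**
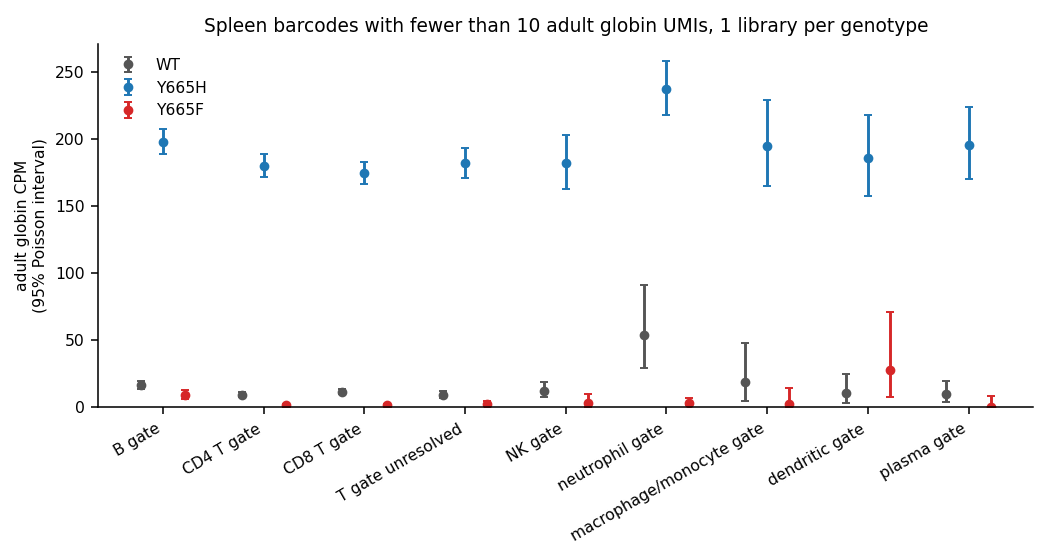
Adult globin CPM (y axis, from 0) with 95% exact Poisson intervals in the marker-defined cell sets of spleen, barcodes with fewer than 10 globin UMIs, 1 library per genotype. Y665H lies between 175 and 237 in all 9 sets, above every WT and Y665F point.

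The ratio of the beta-globin genes in spleen differed between cell sets of the WT library. In WT B cells Hbb-bt gave 63.6% of 99 beta-globin UMIs (95% exact binomial interval 53.4% to 73.1%), against 20.3% of 59 in CD4 T cells and 15.6% of 96 in CD8 T cells (9.02% to 24.5%). In Y665F B cells it gave 65.2% of 23 UMIs (42.7% to 83.6%). In Y665H it was 22.4% in B cells (20.1% to 24.9%), 16.7% in CD4 T cells and 18.5% in CD8 T cells. The WT B and CD8 T intervals did not overlap, in 1 library and for counting error only. Of the WT B cell UMIs, 63 were Hbb-bt.

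Of the remaining members, Car2 was highest in spleen NK cells, at 201, 252 and 152 CPM in WT, Y665H and Y665F, against 3.07, 5.91 and 0.69 in CD8 T cells. Tfrc was highest in dendritic cells, at 85.1, 73.9 and 97.5, and stood at 33.7, 29.5 and 26.5 in B cells. These levels had counting intervals that overlapped between genotypes for Tfrc in dendritic cells. Klf1-positive barcodes numbered 7, 25 and 14 in spleen, too few to describe.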

How the data were processed

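UMI count matrices from 10x libraries were used as deposited, 6 from bone marrow and 3 from spleen. The authors made these counts with Cell Ranger (5.0 in the processing notes, 6.0 in the methods, 6.0.0 in the matrix headers) on mm10. The labels name a 3′ kit and the methods a 5′ kit, which changes which part of a transcript is read. Barcodes were dropped below 200 genes or above 10% mitochondrial UMIs. Predicted doublets were taken out at 0.8% per 1000 barcodes, and this left 4093 to 15910 barcodes per library. Doublets were 3.40% and 9.05% of WT marrow barcodes, 8.35% and 9.71% of Y665H and 14.7% and 15.0% of Y665F, so their removal differed by genotype. With them kept, Klf1-positive barcodes numbered 731 and 1503 in WT, 2441 and 1345 in Y665H, and 1317 and 1111 in Y665F. Pairs of bone marrow libraries shared up to 2.9% of barcode sequences. A barcode joined the cell set with the most of its 6 markers detected, at least 2, after Klf1-positive barcodes were set aside, and the sets are called here by those markers.

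UMIs were summed per library and tested in edgeR 4.0.16 (R 4.3.3; TMM, filterByExpr, quasi-likelihood, genotype in 1 model of 6 libraries). A gene was called when its Benjamini-Hochberg adjusted p was below 0.05 and its fold change exceeded 1 on the log2 scale in size. The Kit comparison was an interaction with library as a block, called at adjusted p alone. Genotype effects could not be checked on Stat5b itself, whose UMIs do not show the edited base. In each genotype replicate 1 carried Xist and replicate 2 Ddx3y, so the 2 libraries came from different mice, of different sex, and replicate and sex coincide. The study's methods describe tissues of male mice, whereas Xist stood at 233 to 848 CPM in the replicate 1 libraries. For the lymphoid single-cell data a legend headed spleen, whose panel names lymph nodes, gives 1 combined sample of 3 mice per group. The number of mice per bone marrow library was not found in the sources used here. Deviations of same-numbered libraries from their genotype means correlated at 0.214, 0.103 and 0.311 between genotypes, which does not establish a pairing. The main fits did not pair the libraries, and a replicate block was run as an alternative. DESeq2 1.42.0, other filters and left-out libraries were alternatives. Tests were checked on simulated data. Intervals and the limit of 3 counts for a 0 cover counting error only. The members, lists and motifs were chosen with earlier results of these data known, and named list genes are up to 3 with the largest called change per list. Some single genes of these lists are not reported here. The globin likeness used sets of at least 50 barcodes.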

Additional observations from a re-analysis of the deposited data

Results flagged for a closer look

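The effect of Y665F on 2 members differed between Klf1-positive barcodes without and with a Kit UMI, by the edgeR interaction test. That test uses a spread estimated largely across genes, which need not cover how far the step varied between libraries of a genotype. For Hbb-bs the difference of the effects was -2.77 on the log2 scale, and both Y665F libraries lay below both WT libraries only without a Kit UMI. Its adjusted p-values ran from 5.6e-09 to 0.537 over its alternatives, and it was not called with predicted doublets kept or without WT replicate 1. For Hba-a1 it was -1.63, with adjusted p-values between 1.9e-09 and 0.405 over its alternatives, the highest with predicted doublets kept.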

How the results depend on the processing

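In Y665F against WT, the calls of Hba-a1, Hba-a2, Hbb-bs, Car1, Car2 and Rhd in Klf1-positive cells were kept under every alternative run, and their largest adjusted p was 0.0317 for Car2. The number of genes called in that comparison was 2048 and became 705 with at least 2 Klf1 UMIs, 999 with a Gata1 UMI, and 873 to 3462 with 1 library left out (1070 without WT replicate 1, 1240 without WT replicate 2, 3462 without Y665F replicate 1 and 873 without Y665F replicate 2). Against Y665H, 2389 became 947, 1234, and 544 to 3884, the lowest without Y665H replicate 1. Subsets and left-out libraries hold fewer samples or UMIs, and the cause was not tested further. For Y665H against WT, 0 became 4 with doublets kept, 17 without the filter on low counts, 4 with the replicate block, and 0 to 9 with a library left out. In whole libraries, Y665F against WT ranged from 1384 to 2704 and Y665F against Y665H from 2146 to 3745 with a library left out, while Y665H against WT rose from 0 to 47 without the filter, to 30 with the replicate block, and to 2 to 102 with a library left out. For the Kit difference in Y665F, 14 became 8 at 1200 UMIs or more, 2 with doublets kept, and 5 to 100 with a library left out, and in Y665H 2 became 1, 0, and 0 to 36. The replicate block changed no member's call in the comparisons fitted with it.

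The share of Klf1-positive barcodes in Y665F minus WT was -5.05 with at least 2 Klf1 UMIs, -13.9 at 1200 UMIs or more and -6.30 when thinned. In Y665H minus WT it turned to -0.74, -0.35 and -0.035 in these settings and ranged from -4.56 to 7.04 with a library left out. The globin percent in Y665F minus WT was 0 as a median over barcodes and -0.00975 with a Gata1 UMI, and in Y665H minus WT it ranged from -0.00904 to 0.00250 with a library left out. In other marrow sets, Car1 in Y665F GMP barcodes was 306 with a lead of 2 markers, and with doublets kept the B cell values were 33.0 for globins in Y665H, 860 for Car1 in WT and 1471 for Car1 in Y665H. Globin UMIs per Y665H spleen B cell barcode were 17.2 with doublets kept, 7.997 with a lead of 2 markers, 12.3 at 500 genes or more and 0.825 under 10 globin UMIs, and 6.39 per CD8 T cell barcode with doublets kept.

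Changes that were not called turned sign in some settings. In Klf1-positive cells with at least 2 Klf1 UMIs they were 0.24 for Hbb-bt in Y665F, and 0.057 for Hbb-bs and 0.094 for Hba-a2 in Y665H. Tfrc in Y665F was -0.0061 with doublets kept. In Y665H, Hbb-bt was -0.016 with a Gata1 UMI, Hba-a2 was 0.012 without the filter and 0.11 in unclaimed barcodes, and Car1 was -0.040 with the replicate block. In whole libraries Tfrc in Y665F was -0.036 at 1200 UMIs or more and -0.020 with doublets kept, and Hbb-bs in Y665H was -0.069 at 1200 UMIs or more and -0.036 with the replicate block. For the Kit difference with doublets kept, Tfrc was 0.061 in Y665F, and Hbb-bt was -0.29 and Tfrc 0.070 in Y665H. With 1 library left out, Klf1-positive changes in Y665H against WT ran from -0.82 to 0.14 for Hbb-bs, -0.27 to 0.46 for Hbb-bt, -0.85 to 0.27 for Hba-a1, -0.66 to 0.36 for Hba-a2, -0.28 to 0.46 for Car1, -0.026 to 0.33 for Car2, -0.22 to 0.40 for Rhd and -0.20 to 0.035 for Tfrc. Tfrc in Y665F ran from -0.072 to 0.28 against WT, and Hbb-bt from -0.73 to 0.0072 against Y665H. Whole-library ranges were -0.23 to 0.30 for Tfrc in Y665F against WT, -0.34 to 0.11 for Hbb-bt and -0.32 to 0.15 for Tfrc against Y665H, and in Y665H against WT -0.72 to 0.52 for Hbb-bs, -0.84 to 0.73 for Hba-a1, -0.47 to 0.91 for Hba-a2, -0.092 to 0.83 for Rhd, -0.13 to 0.37 for Tfrc and -0.94 to 0.79 for Alas2. Kit differences in Y665H ran from -2.47 to 0.018 for Hbb-bs, -0.62 to 0.90 for Hbb-bt, -1.28 to 0.019 for Hba-a1, -0.11 to 0.041 for Rhd and -0.36 to 0.081 for Tfrc. Depth limits Alas2, which had at most 17 UMIs in the Klf1-positive cells of a library, and the beta-globin shares, which rest on 62 to 614 UMIs there.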
